A study of Mus musculus with 15 samples.

Results

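The 58 genes of G2/M and mitosis described here were chosen by gene symbol, and all 58 were found among the 19938 genes measured. They comprise cyclins and kinases (8 genes), the spindle checkpoint (4), the kinetochore (10), the chromosomal passenger complex (4) and kinesins (10). The others act in the spindle and cytokinesis (9), in chromosome condensation and structure (6), in anaphase (4) or elsewhere in mitosis (3). For each gene the probe set with the highest mean log2 value was used.

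A dividing cell enters mitosis when cyclin-dependent kinase bound to A- and B-type cyclins becomes active, and leaves it when the anaphase-promoting complex has these cyclins destroyed. In between, kinetochores attach chromosomes to the spindle, the checkpoint holds anaphase back until all are attached, and kinesins and the passenger complex drive segregation and cytokinesis. Transcripts of these genes peak late in the cell cycle. In the germinal centre, B cells divide and mutate their receptors in the dark zone and compete for antigen and T cell help in the light zone.

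RNA was measured on whole-transcript arrays, 1 sample per array, in germinal centre B cells sorted 10 days after immunization from spleens of female mice. They descended from transferred SwHEL B cells, whose receptor recognises hen egg lysozyme and which carried CD45.1, in C57BL/6J hosts carrying CD45.2. All hosts had received sheep red blood cells coupled to the lysozyme mutant HEL3x. Donor cells that were CD45.1+, CD45.2-, IgG1+ and low in CD38 were divided by zone and by affinity, high or low. Dark zone cells were CXCR4 high and CD86 low, of high affinity (Dzhi, 4 arrays) or low affinity (Dzlo, 4 arrays). Light zone cells were CD86 high and CXCR4 low, of high affinity (Lzhi, 3 arrays, replicates 1, 2 and 4) or low affinity (Lzlo, 4 arrays). The labels do not say whether each sample came from separate mice, so p-values reflect sample-to-sample spread alone, which may be technical.

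Medians of the 15 arrays lay between 5.57 and 5.74 on the log2 scale of the deposited RMA values. The sorted surface markers followed the labels, with group means for Cd86 of 9.56 in Dzhi, 10.20 in Dzlo, 10.89 in Lzhi and 10.96 in Lzlo. Cxcr4 means were 10.97, 11.08, 10.21 and 10.46 in the same order. Sample descriptions carry experiment codes, called A to D here. A and B hold replicates 1 and 2 of every group, and C holds 1 array of every group. D holds Dzhi replicate 4, Dzlo replicate 3 and Lzlo replicate 3. The dark and light zone arrays of B bear 2 spellings of its code, read here as 1 experiment. Lzlo replicate 3 stood apart in markers of other cells. The median of 22 neutrophil markers, each centred on its mean over the arrays, was 2.57 there and 1.05 in Dzlo replicate 3, against -0.58 to 0.14 in the others. For 12 T cell markers it was 1.45 in Lzlo replicate 3 and 0.28 in Dzlo replicate 3, against -0.44 to 0.09 in the others. The neutrophil marker S100a8 was high in further arrays. It read 8.50 to 9.60 in the arrays of B, 8.61 and 9.08 in Dzhi replicates 3 and 4, and 8.63 in Lzlo replicate 4. In the arrays of A it read 5.01 to 6.55, in Lzhi replicate 4 6.06 and in Dzlo replicate 4 7.67. Some T cell markers were also high in Lzlo replicate 4. Cd3d read 7.32, Cd3g 7.60 and Thy1 8.05 there, against means of 4.97, 4.83 and 6.54 over the 15 arrays. In that array 8 of the 12 markers were above their own median and 3 below. Cd3g read 6.67 in Dzlo replicate 4. B cell markers were bright on every array, with Cd79b between 11.75 and 12.52.

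The mitotic genes were well expressed and varied more from array to array than most. Their mean log2 values ran from 6.29 to 10.79 with a median of 8.77, against a median of 5.78 over all genes. These values describe the probe sets and do not rank the transcripts. The range over the 15 arrays had a median of 2.29 for the 58 genes and 0.86 for all genes. It exceeded 2 in 35 of the 58 and 3 in 18, against 9.76% and 2.11% of all genes. Genes of like mean value were not compared separately. Cenpk, a kinetochore subunit, had the widest range of the 58 at 4.64, and Aurkb, the kinase of the passenger complex, the narrowest at 0.68.

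Each gene was next centred on its mean, and the median over the 58 genes was taken as the level of an array. Dzhi arrays had levels of 0.24, 0.67, 0.26 and -0.02, and Dzlo arrays 0.48, 0.22, -0.33 and 0.19. In the light zone the levels were 0.22, 0.37 and -0.08 for Lzhi, and -0.30, -0.08, -1.43 and -0.35 for Lzlo. All 4 Lzlo arrays were below 0, as were Dzhi replicate 4, Dzlo replicate 3 and Lzhi replicate 4, and the groups overlapped. Group means were 0.29 ± 0.29 for Dzhi (SD, n = 4), 0.14 ± 0.34 for Dzlo (n = 4), 0.17 ± 0.23 for Lzhi (n = 3) and -0.54 ± 0.60 for Lzlo (n = 4). Lzlo replicate 3 was the lowest of the 15 arrays for 45 of the 58 genes, against 8.86% of all genes. It is the array with the highest median of neutrophil markers and of T cell markers, and the part of these markers in its low values was not tested. Because the samples are bulk, fewer cells in mitosis and less mitotic RNA per cell cannot be told apart.

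**Figure D1:**
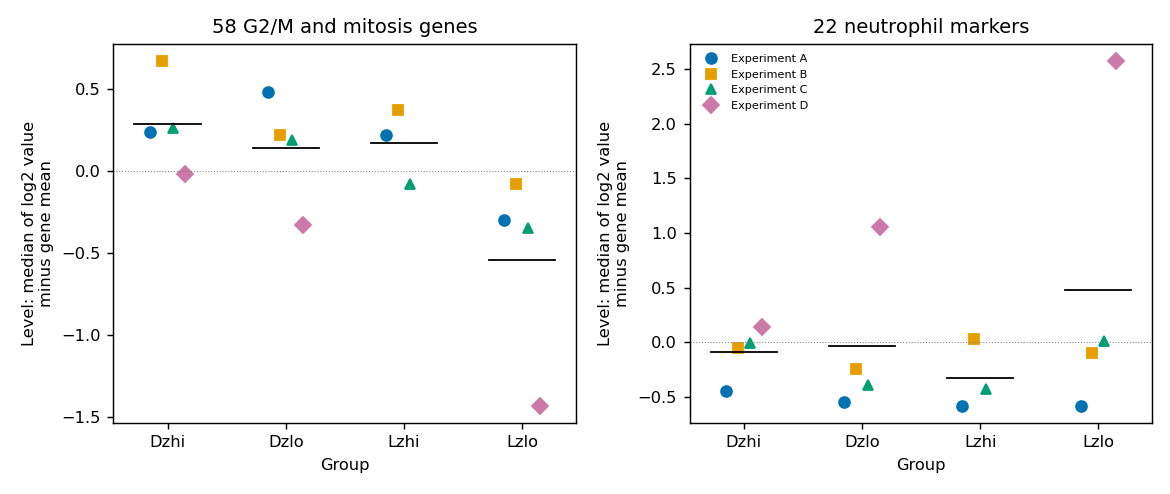
Level of the 58 mitotic genes (left) and of 22 neutrophil markers (right) on each array, as the median over genes of the log2 value minus the gene's mean. Points are arrays, marked by experiment code, and lines are group means. The Lzlo array of experiment D has the lowest mitotic level, -1.43, and the highest neutrophil marker level, 2.57.

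**Figure D2:**
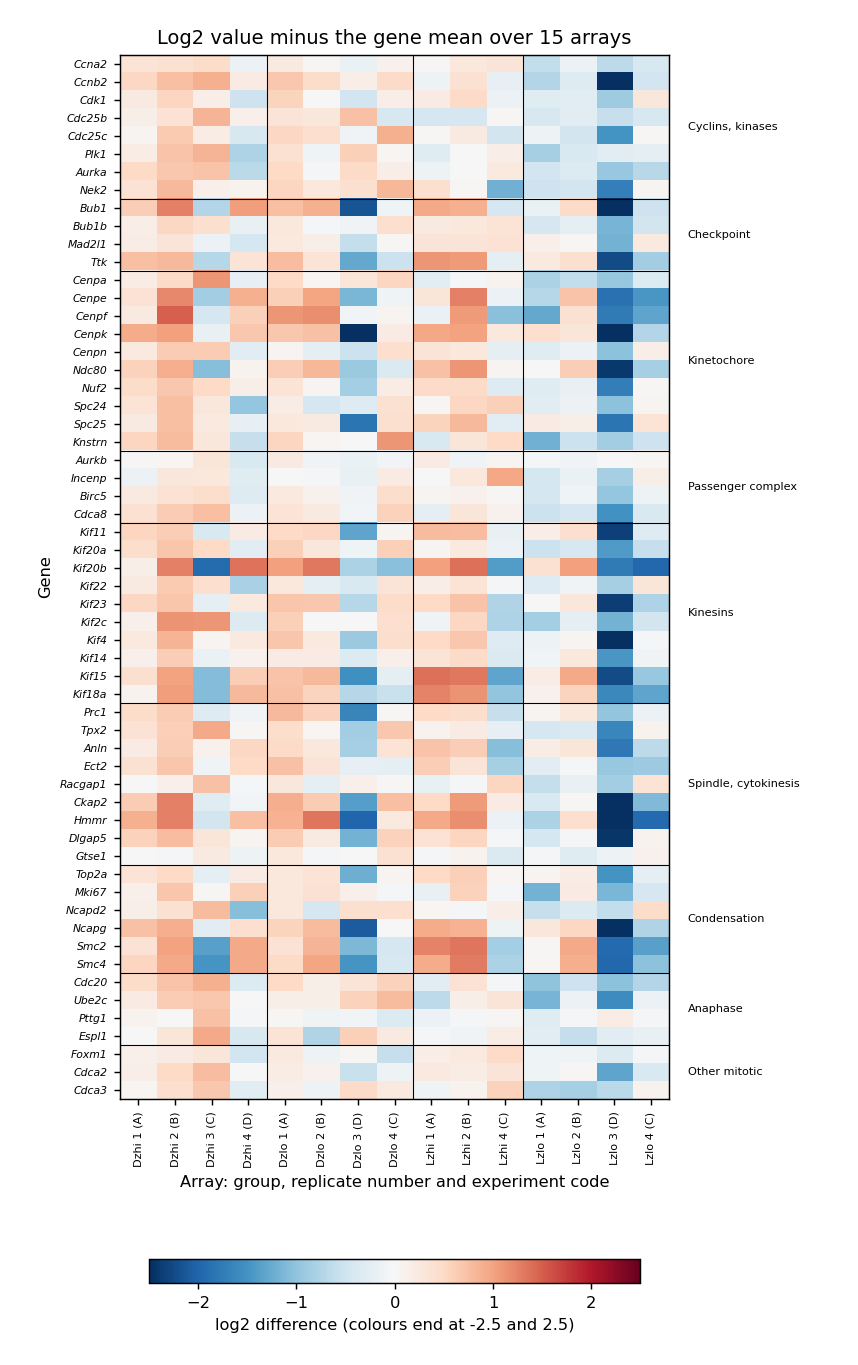
Log2 value minus the gene's mean for the 58 genes (rows, by role) on the 15 arrays (columns, by group, replicate and experiment code). Blue marks values below the gene's mean and red values above it, with colours ending at -2.5 and 2.5. The column of Lzlo replicate 3 is blue in nearly every row, and several kinesin and condensin genes are also blue in the 4 arrays of experiment C.

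Zone was compared first, as light zone minus dark zone averaged over high- and low-affinity cells. A negative difference means less RNA in the light zone, and errors after ± are standard errors from limma unless said to be SD. Many of the 58 genes shifted together on an array, and Dzhi replicate 2 was above the gene's own median for 57 of them. Counts of genes on the same side of 0, here and below, are therefore not counts of independent observations. Of the 58 genes, 53 lay below 0, against 52% of all genes, and their median difference was -0.32, against -0.01 for all genes. None passed an adjusted p of 0.05 in limma (Benjamini-Hochberg over all genes), with a background of 0.0702% called lower. At an unadjusted p under 0.05, 19 of the 58 were lower, against 1.91% of all genes. With the experiment code as a block, which compares arrays within an experiment, 6 genes fell in the light zone, against a background of 0.201%. These were Ccnb2, Cdc20, Cenpa, Cenpf, Cdca8 and Kif20a. The median was then -0.40, with 56 of 58 below 0, against 49.5% of all genes. With the block and without the low-affinity arrays of D, replicate 3 of Dzlo and of Lzlo, the same 6 genes and Ube2c passed. When the codes of B were kept apart as written, Cdc20, Cdca8 and Kif20a passed and the other 3 did not. Without Lzlo replicate 3 and without the block, the median was -0.17, 19 of 58 genes lay above 0, and Ccnb2 alone passed. Without Dzhi replicate 4 and without the block, Cdc20 and Aurka, a spindle pole kinase, passed. Plasma cell markers also lay lower in the light zone, 10 of 12 below 0 with a median of -0.28. Of these, Jchain, the joining chain of secreted antibodies, fell with the block (-1.17 ± 0.20, limma adjusted p = 0.0272), and Prdm1, a regulator that defines plasma cells, read between 4.16 and 5.04 on all arrays. Irf4, the marker of this list with the lowest p without the block, was higher in the light zone. It differed by 0.74 ± 0.17 without the block (limma adjusted p = 0.165) and 0.75 ± 0.18 with it (adjusted p = 0.126). Markers of other lists passed with the block as well. The germinal centre markers Gcsam (-0.92 ± 0.14, limma adjusted p = 0.0169) and Neil1 (-0.64 ± 0.12, adjusted p = 0.0474) fell in the light zone. The B cell marker Cd22 rose (0.46 ± 0.08, adjusted p = 0.042). The centred plasma cell level ran from 0.14 to 0.44 in Dzhi, -0.16 to 0.15 in Dzlo, -0.16 to -0.01 in Lzhi and -0.26 to -0.05 in Lzlo. The part of plasma cell RNA in the mitotic differences was not tested.

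**Figure D3:**
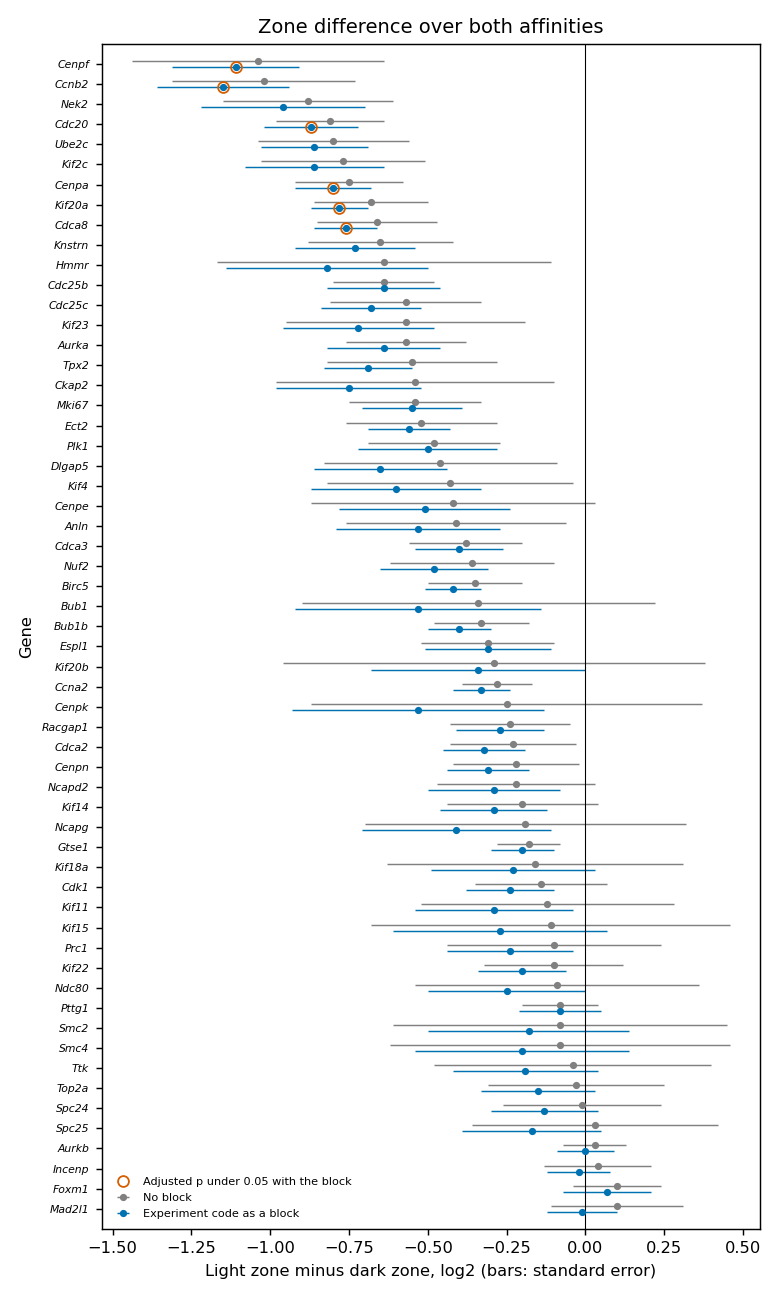
Difference between light and dark zone over both affinities for each of the 58 genes, in log2 units, without a block (grey) and with the experiment code as a block (blue). Bars are standard errors and open circles mark the 6 genes with an adjusted p under 0.05 with the block. Differences reach from about -1.1 for Ccnb2 and Cenpf to about 0.1 for Foxm1 and Mad2l1.

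Among the cyclins and kinases, all 8 genes lay below 0, with a median of -0.57. Ccnb2, a B-type cyclin that activates Cdk1 at mitotic entry, read 10.91, 11.15, 11.28 and 10.61 in Dzhi and 11.07, 10.85, 10.56 and 10.88 in Dzlo. In the light zone it read 10.28, 10.78 and 10.19 in Lzhi and 9.67, 10.08, 7.78 and 9.92 in Lzlo. Every Lzlo array was below every dark zone array, and Lzhi replicate 2 reached into the dark zone range. The difference was -1.02 ± 0.29 without the block (limma adjusted p = 0.355) and -1.15 ± 0.21 with it (adjusted p = 0.0422), lower in 7 of 7 pairs of the same experiment and affinity. Cdc25b, a phosphatase that activates Cdk1, differed by -0.64 ± 0.16 (limma adjusted p = 0.216), and Nek2, a centrosomal kinase, by -0.88 ± 0.27. Plk1, a kinase needed throughout mitosis, differed by -0.48 ± 0.21 and Ccna2, the A-type cyclin, by -0.28 ± 0.11. The kinase itself, Cdk1, differed least of the 8, by -0.14 ± 0.21.

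In the checkpoint group, which senses unattached kinetochores, 3 of 4 genes lay below 0 and none passed in either fit. Bub1b, a subunit of the mitotic checkpoint complex, differed by -0.33 ± 0.15. Bub1, a checkpoint kinase at kinetochores, differed by -0.34 ± 0.56, and Mad2l1, which binds Cdc20 to restrain anaphase, by 0.10 ± 0.21. The error of Bub1 exceeded its difference.

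Of the 10 kinetochore genes, 9 lay below 0, and Cenpa and Cenpf fell with the block. Cenpa encodes the histone H3 variant that marks centromeres. It read 8.96, 9.24, 9.87 and 8.57 in Dzhi and 9.27, 8.82, 9.07 and 9.30 in Dzlo, against 8.48, 8.72 and 8.85 in Lzhi and 7.98, 8.15, 7.83 and 8.43 in Lzlo. Dzhi replicate 4, at 8.57, and Dzlo replicate 2, at 8.82, lay within the Lzhi range, and every Lzlo array was below the dark zone. The difference was -0.75 ± 0.17 without the block (limma adjusted p = 0.147) and -0.80 ± 0.12 with it (adjusted p = 0.0172), lower in 7 of 7 pairs.

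Cenpf, a large protein that joins kinetochores late in G2, read 7.67, 8.94, 7.00 and 8.04 in Dzhi and 8.54, 8.60, 7.37 and 7.51 in Dzlo. Light zone values were 7.27, 8.51 and 6.40 in Lzhi and 6.17, 7.83, 5.68 and 6.12 in Lzlo. The groups overlapped widely, and arrays of experiment B were high in both zones. The mean of experiment C was lower than that of A and B, 6.76 against 7.94. Compared within experiments, all 7 light zone arrays were below their partners. Its difference was -1.04 ± 0.40 without the block (limma adjusted p = 0.885) and -1.11 ± 0.20 with it (adjusted p = 0.0376). Spc25, of the Ndc80 complex that holds microtubules, differed by 0.03 ± 0.39.

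The passenger complex was split. Cdca8, its borealin subunit, read 9.54, 9.79, 9.91 and 9.01 in Dzhi and 9.50, 9.38, 9.10 and 9.73 in Dzlo, against 8.92, 9.46 and 9.26 in Lzhi and 8.63, 8.75, 7.65 and 8.79 in Lzlo. Its Lzlo arrays were all below the dark zone and its Lzhi arrays overlapped it. The difference was -0.66 ± 0.19 without the block (limma adjusted p = 0.4) and -0.76 ± 0.10 with it (adjusted p = 0.00807). The survivin gene Birc5 differed by -0.35 ± 0.15, while the kinase Aurkb and the scaffold Incenp were at 0.03 ± 0.10 and 0.04 ± 0.17. The value of Incenp averages opposite differences, with group means of 9.85 in Dzhi, 9.82 in Dzlo, 10.24 in Lzhi and 9.51 in Lzlo. Aurkb stayed between 8.77 and 9.45 on all 15 arrays, so its group means of 9.15, 9.13, 9.20 and 9.14 lay closer together than its arrays.

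All 10 kinesin genes lay below 0, with a median of -0.25. Kif20a, a motor of the central spindle and cytokinesis, read 8.40, 8.66, 8.47 and 7.69 in Dzhi and 8.57, 8.26, 7.87 and 8.56 in Dzlo. Its light zone values were 8.04, 8.21 and 7.82 in Lzhi and 7.44, 7.57, 6.56 and 7.40 in Lzlo. Lzlo lay below every dark zone array, while Dzlo replicate 3 lay within the Lzhi range and Dzhi replicate 4 below it. The difference of -0.68 ± 0.18 did not pass without the block (limma adjusted p = 0.313) and, at -0.78 ± 0.09, had the lowest adjusted p of the 58 genes with it, 0.00322. Kif2c, which depolymerises microtubules at centromeres, differed by -0.77 ± 0.26 and Kif22, a chromosome-arm motor, by -0.10 ± 0.22.

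In the anaphase group, Cdc20, the activator of the anaphase-promoting complex, had the lowest adjusted p of the 58 genes without the block. It read 9.52, 9.77, 9.95 and 8.72 in Dzhi and 9.56, 9.20, 9.39 and 9.63 in Dzlo, against 8.79, 9.43 and 9.02 in Lzhi and 8.05, 8.54, 8.03 and 8.32 in Lzlo. The Lzlo arrays were the 4 lowest. Replicates 2 and 3 of Dzlo lay within the Lzhi range and Dzhi replicate 4 below it. The difference was -0.81 ± 0.17 without the block (limma adjusted p = 0.124), or 1.75-fold lower in the light zone. It was -0.87 ± 0.15 with the block (adjusted p = 0.0274) and -0.94 without Dzhi replicate 4 and without the block (adjusted p = 0.0119). Pttg1, the securin gene, differed by -0.08 ± 0.12.

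Spindle, condensation and remaining genes held no gene that passed in either fit. Hmmr, a spindle assembly factor, differed by -0.64 ± 0.53 and Prc1, which bundles central spindle microtubules, by -0.10 ± 0.34. Mki67, which coats mitotic chromosomes, was at -0.54 ± 0.21, and Top2a, which untangles DNA for segregation, at -0.03 ± 0.28. Foxm1, a transcription factor that drives late cell cycle genes, was at 0.10 ± 0.14, and Cdca3, a trigger of mitotic entry, at -0.38 ± 0.18.

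**Figure D4:**
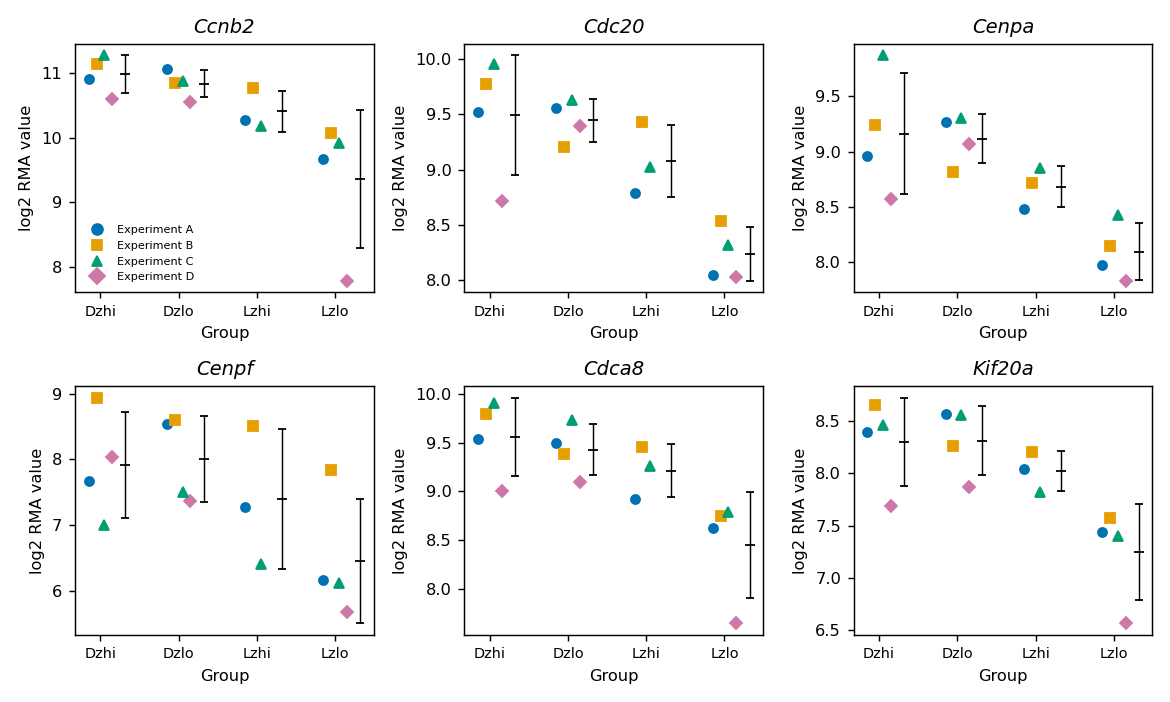
Log2 RMA values of the 6 genes that passed with the experiment block, on every array, by group. Points are marked by experiment code, and bars show the mean and SD of each group. In all 6 genes the Lzlo mean is the lowest of the 4 groups, and within an experiment each light zone array lies below the dark zone array of its affinity.

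Promoter sequences of the genes that passed with the block are shown because late cell cycle genes often share 2 short elements near their start. These are a cell cycle homology element, searched here as TTTGAA or TTTAAA, and CCAAT boxes, both on either strand. RefSeq promoters of build GRCm38.p6, from 250 bases before to 50 after the start, were found for 47 of the 58 genes by gene ID. Kif20a is not among those 47. TTTGAA or TTTAAA occurred in 38 of the 47 genes (80.9%), against 26.8% of 15516 other genes on the array. At least 1 CCAAT occurred in 76.6% against 41.6%, 2 or more in 46.8% against 14.2%, and both elements in 68.1% against 10.7%. A match of letters is a description, and binding was not measured.

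The stretches below run 5′ to 3′ from 230 bases before to 25 after the start, with the searched letters in capitals. ATTGG is CCAAT and TTCAAA is TTTGAA on the other strand, and in Cdca8 the TTTGAA shares 1 base with an ATTGG. Ccnb2 lies at chr9:70421530-70421784 on the minus strand, and Cdc20 at chr4:118437319-118437573 on the minus strand. Cdca8 lies at chr4:124936893-124937147 on the minus strand, Cenpa at chr5:30666656-30666910 on the plus strand, and Cenpf at chr1:189688062-189688316 on the minus strand.
Ccnb2: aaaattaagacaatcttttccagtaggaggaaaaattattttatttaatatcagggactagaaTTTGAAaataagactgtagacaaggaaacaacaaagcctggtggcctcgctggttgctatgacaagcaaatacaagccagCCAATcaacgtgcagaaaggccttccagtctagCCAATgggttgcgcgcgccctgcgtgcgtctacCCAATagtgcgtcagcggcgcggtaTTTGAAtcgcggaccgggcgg
Cdc20: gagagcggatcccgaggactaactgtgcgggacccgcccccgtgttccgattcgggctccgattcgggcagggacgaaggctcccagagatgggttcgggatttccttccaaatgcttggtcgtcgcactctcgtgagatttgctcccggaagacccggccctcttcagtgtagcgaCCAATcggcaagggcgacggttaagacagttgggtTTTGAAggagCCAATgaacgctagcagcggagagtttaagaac
Cdca8: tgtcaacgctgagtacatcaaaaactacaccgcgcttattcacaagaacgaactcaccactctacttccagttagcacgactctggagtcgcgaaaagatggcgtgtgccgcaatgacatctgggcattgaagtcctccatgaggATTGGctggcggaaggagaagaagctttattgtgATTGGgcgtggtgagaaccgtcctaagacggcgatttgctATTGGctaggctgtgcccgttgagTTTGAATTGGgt
Cenpa: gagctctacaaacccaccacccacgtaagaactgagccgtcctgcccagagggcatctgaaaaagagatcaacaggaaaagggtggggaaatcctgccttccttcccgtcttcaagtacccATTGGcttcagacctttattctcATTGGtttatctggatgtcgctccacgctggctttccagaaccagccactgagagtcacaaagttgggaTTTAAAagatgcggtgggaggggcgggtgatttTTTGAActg
Cenpf: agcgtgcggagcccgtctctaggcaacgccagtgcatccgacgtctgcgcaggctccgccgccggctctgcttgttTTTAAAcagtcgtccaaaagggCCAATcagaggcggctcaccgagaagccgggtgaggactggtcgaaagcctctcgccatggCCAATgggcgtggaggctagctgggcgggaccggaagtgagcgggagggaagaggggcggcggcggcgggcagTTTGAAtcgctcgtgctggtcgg
All 5 hold both elements, with 2 to 4 CCAAT each. For contrast, a member with many matches and no called difference and a member with no match are shown, both chosen after their values were seen. Top2a lies at chr11:99024165-99024419 on the minus strand, and Knstrn, a kinetochore protein, at chr2:118813773-118814027 on the plus strand.
Top2a: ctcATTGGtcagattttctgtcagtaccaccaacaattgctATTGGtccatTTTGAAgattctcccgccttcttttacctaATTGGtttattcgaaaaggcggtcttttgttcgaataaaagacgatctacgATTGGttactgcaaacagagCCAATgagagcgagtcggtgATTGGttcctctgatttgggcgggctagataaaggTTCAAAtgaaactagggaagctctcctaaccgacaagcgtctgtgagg
Knstrn: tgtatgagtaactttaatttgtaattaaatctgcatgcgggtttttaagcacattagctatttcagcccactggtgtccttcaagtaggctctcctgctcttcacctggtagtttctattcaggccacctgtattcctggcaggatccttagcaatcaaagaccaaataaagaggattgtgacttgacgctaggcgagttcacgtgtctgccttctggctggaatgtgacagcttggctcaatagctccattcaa
Top2a holds 6 CCAAT and 2 TTTGAA, and its zone difference was near 0. Knstrn holds neither set of letters and differed by -0.65 ± 0.23 between zones, which did not pass (limma adjusted p = 0.728). Kif18a, Mad2l1, Nuf2 and Pttg1 also hold neither, and the zone differences of Mad2l1 and Pttg1, given above, were near 0. Whether these letters go with the zone difference was not tested.

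The zone difference was then taken apart by affinity. In low-affinity cells 56 of 58 genes lay below 0, with a median of -0.59, against 51.4% of all genes below 0. None passed without the block, with a background of 0% called lower in limma, and 20 were lower at an unadjusted p under 0.05, against 1.48%. With the block Kif20a (-1.07 ± 0.12), Cdca8 (-0.97 ± 0.14), Cdc20 (-1.21 ± 0.20) and Cenpa (-1.02 ± 0.17) fell, against a background of 0.0652%. Their adjusted p in limma were 0.00977, 0.0235, 0.046 and 0.0469. With the codes of B as written, Kif20a and Cdca8 passed. With the block and without replicate 3 of Dzlo and of Lzlo, Kif20a and Hmmr passed and the other 3 did not. Without Dzhi replicate 4 and without the block, Cdc20 passed. That array is in neither group compared here and enters only through the spread estimate shared by all groups. In 13 genes every Lzlo array was below every Dzlo array, against 0.918% of all genes, among them Bub1b, Ube2c, Aurka, Plk1 and Birc5. Ube2c, the ubiquitin-conjugating enzyme of the anaphase-promoting complex, differed by -1.17 ± 0.33, and Bub1b by -0.71 ± 0.20. Pttg1 and Aurkb were the 2 genes above 0, at 0.08 ± 0.16 and 0.01 ± 0.14. Medians within experiments A, B, C and D were -0.70, -0.25, -0.51 and -0.89. Without Lzlo replicate 3 the median was -0.23. In the same comparison 20 of 22 neutrophil markers (median 0.46) and 9 of 12 T cell markers (median 0.26) lay above 0. Within experiment D, where the 58 genes had their lowest median, these medians were 1.19 and 0.95. In experiments A, B and C they were -0.08, 0.14 and 0.50 for neutrophil markers and -0.03, 0.06 and -0.02 for T cell markers. Their part in the zone difference was not tested.

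In high-affinity cells the genes lay on both sides of 0, 23 above and 35 below, with a median of -0.07 and 51.2% of all genes below 0. The median was 0.05 without Dzhi replicate 2 and 0.04 without Lzhi replicate 4. None passed, with a background of 0% called lower in limma without the block and 0.0201% with it. Cdc25b, at -0.64 ± 0.23, was the only gene lower at an unadjusted p under 0.05 (background 1.32%) and the only one whose groups did not overlap (1.85%). Both counts were near the share of all genes. Cdc25b read 8.36, 8.57, 9.06 and 8.34 in Dzhi and 7.80, 7.80 and 8.24 in Lzhi. With the block the median was -0.27, with 10 genes above 0 (51.8% of all genes) and 10 lower at an unadjusted p under 0.05 (background 1.75%). Cenpa differed by -0.48 ± 0.25, Cdc20 by -0.41 ± 0.25 and Ccnb2 by -0.57 ± 0.42, each lower in 3 of 3 pairs. Ndc80, the microtubule-binding kinetochore subunit, was at 0.51 ± 0.65, and Incenp at 0.39 ± 0.25. Medians within experiments A, B and C were -0.02, -0.19 and -0.33. Experiment D holds no Lzhi array.

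Affinity was compared within the light zone, as Lzhi minus Lzlo. Of the 58 genes, 57 lay above 0, against 49.9% of all genes, with a median of 0.73. None passed in limma, as for all genes, of which 0% were called higher with or without the block. At an unadjusted p under 0.05, 16 were higher without the block (background 1.64%) and 22 with it (2.12%). In 15 genes every Lzhi array was above every Lzlo array, against 2.26% of all genes. The median was 0.55 with the block and 0.42 without Lzlo replicate 3 and without the block. Within experiments A, B and C it was 0.60, 0.43 and 0.28, with 57, 55 and 41 genes above 0.

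Bub1b had the lowest p of these genes. It read 9.91, 9.94 and 10.03 in Lzhi and 9.25, 9.44, 8.51 and 9.23 in Lzlo, with no overlap, a difference of 0.85 ± 0.22 (limma adjusted p = 1). Ccna2 read 9.81, 10.04 and 10.11 in Lzhi and 9.17, 9.64, 9.12 and 9.38 in Lzlo, also without overlap, a difference of 0.66 ± 0.17. For Cdc20 and Kif20a, whose values are given above, the differences were 0.85 ± 0.25 and 0.78 ± 0.27, and for Incenp 0.73 ± 0.25. The widest differences had wide errors. Hmmr read 7.92, 8.13 and 6.83 in Lzhi and 6.18, 7.38, 4.42 and 5.03 in Lzlo, a difference of 1.87 ± 0.78 in overlapping groups.

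Over all arrays, nearly all genes of each role lay above 0. All 8 cyclin and kinase genes were above 0, from Cdc25b at 0.14 ± 0.23 to Ccnb2 at 1.06 ± 0.42, with a median of 0.46. All 4 checkpoint genes were above 0 with a median of 1.04, up to Ttk, a checkpoint kinase, at 1.26 ± 0.64. Kinetochore genes had a median of 0.84, from Cenpn at 0.45 ± 0.30 to Cenpk at 1.65 ± 0.92. Kinesins had one of 0.89, from Kif22 at 0.39 ± 0.33 to Kif18a, which limits chromosome movement, at 1.02 ± 0.68. Condensation genes had one of 0.87, from Ncapd2 at 0.32 ± 0.37 to Ncapg at 1.24 ± 0.76, both condensin subunits. Foxm1 was at 0.44 ± 0.20, Cdca3 at 0.73 ± 0.26 and Top2a at 0.74 ± 0.41. Pttg1, Gtse1 and Aurkb were close to 0, at 0.00 ± 0.18, 0.00 ± 0.15 and 0.07 ± 0.15. Within experiment C, kinesins had a median of -0.14, with 5 of 10 genes above 0. Spindle and cytokinesis genes had one of -0.10 there, with 4 of 9 above 0, and each other role had a median above 0. No difference between roles was tested. Over all arrays of the same comparison, 21 of 22 neutrophil markers lay below 0 (median -0.77), as did 11 of 12 T cell markers (median -0.65). Their part in the mitotic differences was not tested.

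In the dark zone, Dzhi minus Dzlo, 49 of 58 genes lay above 0, against 50.4% of all genes, with a median of 0.15. None passed in limma (background 0%), and none was higher at an unadjusted p under 0.05 (0.757% of all genes). With the block 2 were (1.36%). No gene's groups were apart, against 0.632% of all genes. Without Dzlo replicate 3 the median was -0.01, with 28 genes above 0, and within experiments A to D it was -0.10, 0.38, -0.11 and 0.21. Cenpk had the highest difference, 0.87 ± 0.85, and read 9.94, 10.05, 8.84 and 9.69 in Dzhi and 9.70, 9.76, 6.34 and 9.23 in Dzlo. Its low Dzlo value is that of replicate 3. Of 12 plasma cell markers 11 lay above 0 here, with a median of 0.38, and their part was not tested. Pttg1 was at 0.32 ± 0.16, Ccna2 at 0.22 ± 0.16 and Cdc25c, a phosphatase acting on Cdk1, at -0.31 ± 0.32.

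**Figure D5:**
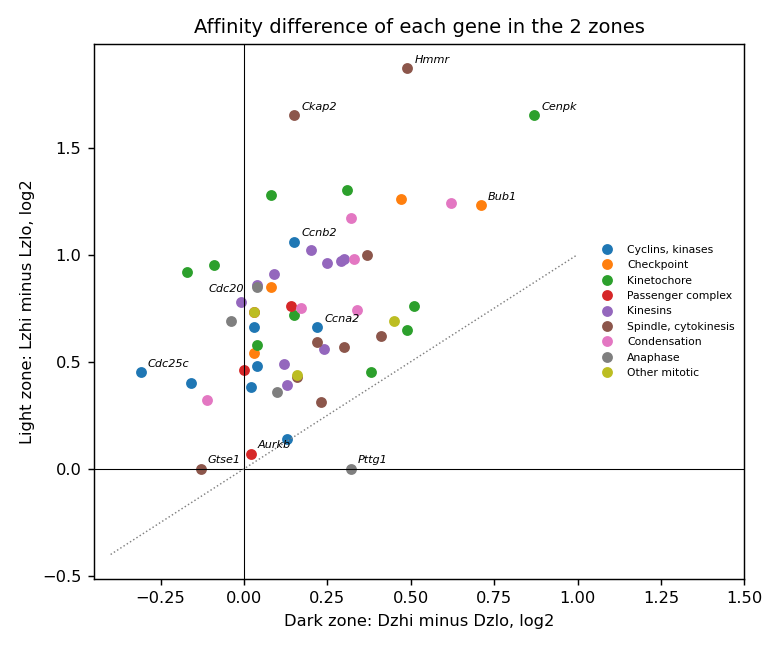
Affinity difference of each of the 58 genes in the light zone (vertical axis) against that in the dark zone (horizontal axis), in log2 units, coloured by role. The dotted line marks equal differences. Points lie above the line for 57 of 58 genes, and Pttg1 lies below it.

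Averaged over both zones, 57 of 58 genes lay above 0, on the high-affinity side, against 50.3% of all genes, with a median of 0.44. None passed in limma (background 0%), and 10 were higher at an unadjusted p under 0.05 without the block (1.63%) and 22 with it (2.7%). Ccna2, at 0.44 ± 0.11 (limma adjusted p = 0.839), was higher in 7 of 7 pairs. In this comparison 11 of 12 plasma cell markers lay above 0, with a median of 0.24. Dark zone values of Ccna2 were 10.13, 10.17, 10.24 and 9.63 in Dzhi and 10.00, 9.81, 9.62 and 9.89 in Dzlo, which overlap.

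Whether affinity differences were unequal between zones was tested as the interaction, the light zone difference minus the dark zone difference. It was above 0 for 57 of 58 genes, with a median of 0.57, against 49.7% of all genes. None passed in limma (background 0%), and Bub1b (0.77 ± 0.29), Knstrn (1.09 ± 0.46) and Cdc20 (0.80 ± 0.35) had an unadjusted p under 0.05, against 0.652% of all genes. With the block the median was 0.34 and 8 genes had such a p (0.983%). Without Lzlo replicate 3 the median was 0.24. The interaction and both affinity comparisons share the same arrays.

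Values of some genes also differed by experiment. In 10 of the 58, all 4 arrays of experiment C were below all 8 arrays of A and B, against 3.18% of all genes, and in 0 were they all above (3.56%). The 10 were Ttk, Cenpk, Kif11, Kif15, Kif18a, Kif20b, Prc1, Ncapg, Smc2 and Smc4. Low values of these genes were not particular to C. All 10 also read lower in Dzlo replicate 3 and Lzlo replicate 3, of experiment D, than in every array of A and B. Smc4 read 8.02 and 7.54 there. Dzhi replicate 4, the other array of D, read 10.44 for Smc4 but 8.67 for Prc1, below A and B. The share of all genes low in this way in D was not counted. Kif20b, a motor acting in cytokinesis, read 7.24, 8.35, 5.16 and 8.45 in Dzhi and 8.11, 8.40, 6.29 and 6.04 in Dzlo. It read 8.11, 8.47 and 5.69 in Lzhi and 7.47, 8.12, 5.32 and 5.13 in Lzlo. Its mean was 5.50 in experiment C and 8.03 in A and B, a difference of -2.53. For Smc2 and Kif15 the difference was -1.77 and -1.74. None of the 10 came from the cyclin and kinase group or the passenger complex, where the difference was smaller, with Ccnb2 at -0.03, Cdk1 at -0.06, Ccna2 at 0.05 and Cdca8 at 0.18.

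Other genes of the late cell cycle and those of DNA replication were read beside the 58. Of 102 further G2/M genes none passed in any comparison in limma, with or without the block. Their zone median was -0.05, with 65 of 102 below 0 and 3 (2.94%) lower at an unadjusted p under 0.05, near the 1.91% of all genes. Their light zone affinity median was 0.41, with 86 of 102 above 0 (49.9% of all genes) and 16 (15.7%) higher at such a p (1.64%). Cks1b, a small Cdk-binding protein, was at -0.25 ± 0.10 between zones and 0.65 ± 0.14 for affinity in the light zone. Of 49 genes of G1/S and replication, 32 lay above 0 between zones, with a median of 0.04, and none passed in limma, with 1 (2.04%) higher at an unadjusted p under 0.05, below the 2.47% of all genes. Their affinity median was 0.29 in the light zone (43 above 0, against 49.9% of all genes) and 0.26 in the dark zone (47 above 0, against 50.4%). In the light zone 10 of the 49 (20.4%) were higher in high-affinity cells at an unadjusted p under 0.05, against 1.64% of all genes. The difference between these lists and the 58 genes was not tested.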

How the data were processed

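The values used are log2 intensities as deposited by the authors, for 28853 probe sets on 15 arrays, with RMA and genome build mm8 named per the submitters' processing notes. RMA subtracts background, brings all arrays to 1 distribution and combines the probes of a set, which compresses differences of dim probe sets. The software version is not given in the sources used here. The labels' protocols state that RNA was amplified before labelling, which can add spread between samples. The number of arrays limits the precision.

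Titles gave groups and replicate numbers. Gene symbols came from the platform's annotation (21789 probe sets with 1 gene, 1621 with several and 5443 with none), and the highest-mean probe set was kept for each of 19938 genes. Limma 3.58.1 in R 4.3.3 fitted 4 group means (lmFit and eBayes, 11 residual degrees of freedom), with Benjamini-Hochberg adjustment over all genes per comparison. This fit was tested on simulated data with independent arrays, for zone over both affinities. It was also run with the experiment code of the sample descriptions as a block, which was not simulated. Deviations from group means of arrays that share a code correlated at 0.288 on average (21 pairs between groups, 16 above 0.1) and at -0.082 for different codes (63 pairs), so the block is given beside the fit without it. For the same title number it was 0.227. Promoters are RefSeq's, and motifs were searched as exact letters.

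Genes with values were named by a rule: those past the threshold in either fit, the 5 lowest p, the extremes of each role, and 12 core genes. The members and lists were chosen with earlier results of these data known. Genes named for experiment C, for promoters or as further examples were chosen after their values were seen. Figures were drawn with matplotlib 3.10.9.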

Additional observations from a re-analysis of the deposited data

Results flagged for a closer look

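Each of the 58 genes, each role's level and the level of all 58 were checked for an array far from the other 3 in groups of 4 arrays, and 14 of 204 such sets had one. Chance alone gives about 1 in 20. The 2 low-affinity arrays of experiment D held 11 of the 14. Lzlo replicate 3 was far below the rest of its group for Mad2l1 (9.48), Spc25 (6.40), Cdca8 (7.65), Kif20a (6.56), Kif4 (6.21) and the level of the Foxm1, Cdca2 and Cdca3 group (-0.67). Dzlo replicate 3 was far below for Cenpk (6.34), Spc25 (6.40), Kif14 (7.69), Anln (6.50) and Ckap2 (6.12). In Dzhi, replicate 4 was low for Aurka (8.36), and replicate 3 was low for Smc4 (8.01) and high for Pttg1 (10.34).

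For 5 genes the light zone was higher in all 3 high-affinity pairs and lower in all 4 low-affinity pairs (8.62% of the 58, against 0.547% of all genes), and for 0 the reverse held (0.466%). In high-affinity cells the zone difference was 0.51 for Ndc80, 0.22 for Kif11, 0.12 for Kif20b, 0.17 for Top2a and 0.24 for Smc4. In low-affinity cells it was -0.69, -0.46, -0.70, -0.22 and -0.41 in the same order. The interaction was 1.20 ± 0.89, 0.67 ± 0.81, 0.82 ± 1.34, 0.40 ± 0.56 and 0.65 ± 1.08, and none passed (limma adjusted p = 1 for each).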

How the results depend on the processing

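Over both affinities, 0 of the 58 genes passed between zones without a block. The count was 6 with the experiment block, 3 with the codes of B as written and 1 (Cenpf) with the title number as a block. It was 1 (Ccnb2) without replicate 3 of Dzlo and of Lzlo, 7 with the experiment block and without both of these (chosen after seeing the data), and 4 without experiment D. Leaving out 1 array at a time gave 0 to 2, with 2 (Aurka and Cdc20) without Dzhi replicate 4 and 1 (Ccnb2) without Lzlo replicate 3. In low-affinity cells the 0 became 4 with the experiment block, 2 with code B as written and 2 with the block and without that pair of arrays. Leaving out 1 array gave 0 to 1, the 1 (Cdc20) without Dzhi replicate 4, which enters this comparison only through the shared spread estimate. In the other 5 comparisons the count stayed at 0 under each alternative. Medians of the 58 genes ranged over 26 alternatives from -0.48 to -0.17 between zones over both affinities, -0.35 to 0.05 in high-affinity and -0.85 to -0.23 in low-affinity cells. For affinity they ranged from 0.42 to 0.84 in the light zone, -0.01 to 0.26 in the dark zone and 0.22 to 0.51 over both, and for the interaction from 0.24 to 0.73. The sign turned for the high-affinity zone median without Dzhi replicate 2 or Lzhi replicate 4, and for the dark zone affinity median without Dzlo replicate 3 or without both replicates 3.

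The interaction of Foxm1, 0.28 ± 0.28, was -0.0042 without experiment D. It had the same value with the experiment block and without replicate 3 of Dzlo and of Lzlo. Of 188 named gene and comparison pairs, 79 had a difference under its standard error, and 58 of these changed sign under at least 1 of 26 alternatives. Over all genes, 31, 3 and 2 passed between zones over both affinities, in high- and in low-affinity cells, and 90, 11 and 30 with the experiment block. With the title number as a block these were 83, 7 and 18, and with array weights 68, 5 and 16. The causes were not tested.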
